A study of Mus musculus with 3 samples.

Results

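The adult globin genes of the mouse and the gene of their chaperone were examined in RNA-seq data of bone marrow (BM) Ly6G+ myeloid cells. These 5 genes were Hba-a1 and Hba-a2 (alpha globin copies), Hbb-bs and Hbb-bt (beta globin copies) and Ahsp (alpha haemoglobin stabilising protein), out of 16072 named genes in the table. They were taken by gene symbol, and the set had been chosen on the FPKM values of these same libraries, in particular on the contrast between AAV-IL27 and AAV-ctrl. That contrast is therefore given for them as a description, without a test. All 5 were found in the table, and each reached a mean FPKM of 1, the limit used for counts over genes.

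The samples came from C57BL/6 mice that carried B16.F10 melanoma cells under the skin and received an adeno-associated virus (AAV) vector in the muscle 1 week later. Mice of the study were 6 to 10 weeks old. AAV-IL27 is a vector of the AAV2/8 type that expresses murine IL-27, the EBI3 and p28 subunits joined by a peptide, from a ubiquitous promoter, and AAV-ctrl is the empty vector. The tumour, the strain and the injection were therefore common to both groups, and the cells were taken 3 weeks after the vector. Analysed here were libraries of 2 mice given AAV-ctrl (AAV-ctrl 1 and AAV-ctrl 2) and of 1 mouse given AAV-IL27. The submitters' text counts 4 mice in all. The labels name the sorted cells Ly6G+, the study's text also uses Gr-1+ for such cells, and antibodies to Gr-1 can also bind Ly6C on monocytes.

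Haemoglobin carries oxygen in red cells and is a tetramer of alpha and beta globin chains, each holding a haem group. The genes of the chains lie in separate clusters on different chromosomes, and erythroblasts transcribe them at very high rates while they mature. Free alpha chains are unstable, and Ahsp binds them until they meet a beta chain. In BM, erythroblasts ripen around macrophages into reticulocytes, which have lost the nucleus but keep globin mRNA. Neutrophils, which carry Ly6G, are not known as haemoglobin producers. The library protocol of the labels mentions removal of globin mRNA for human whole blood only, and whether red cells were lysed before the selection of Ly6G+ cells was not stated in the sources used here.

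The alpha copies lie on chromosome 11 (GRCm38, RefSeq), Hba-a1 from 32283672 to 32284486 and Hba-a2 from 32296492 to 32297310, both on the plus strand. The beta copies lie on chromosome 7 on the minus strand, Hbb-bs from 103826523 to 103827928 and Hbb-bt from 103812524 to 103813923. Each of these 4 genes has 3 exons in its protein-coding GENCODE M21 transcript. Of the 5 genes, 4 were matched by symbol in the RefSeq promoter table, and Ahsp was not. The 250 bases before the annotated RefSeq start are shown as a description, and whether they bear on the levels in these libraries was not tested. The GENCODE models of these genes begin further upstream, inside these windows. Capitals mark matches on either strand to textbook motif cores, which are GATA for the GATA factors, CACCC for Krüppel-like factors, CCAAT for its binding factors and TATAA for the TATA box. The window of Hba-a1 is chr11:32283422-32283671 (plus strand), that of Hbb-bs chr7:103827929-103828178 (minus strand) and that of Hbb-bt chr7:103813924-103814173 (minus strand), each written 5′ to 3′ along the gene.
Hba-a1: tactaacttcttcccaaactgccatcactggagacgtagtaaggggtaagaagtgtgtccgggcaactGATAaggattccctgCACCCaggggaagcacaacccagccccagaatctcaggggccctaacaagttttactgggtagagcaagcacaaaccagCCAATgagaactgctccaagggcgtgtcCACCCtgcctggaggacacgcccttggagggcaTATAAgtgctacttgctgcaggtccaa
Hbb-bs: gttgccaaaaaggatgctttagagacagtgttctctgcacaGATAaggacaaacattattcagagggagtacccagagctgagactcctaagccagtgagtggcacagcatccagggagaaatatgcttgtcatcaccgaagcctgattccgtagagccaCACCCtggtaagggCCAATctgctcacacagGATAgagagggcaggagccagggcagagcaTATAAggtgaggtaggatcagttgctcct
Hbb-bt: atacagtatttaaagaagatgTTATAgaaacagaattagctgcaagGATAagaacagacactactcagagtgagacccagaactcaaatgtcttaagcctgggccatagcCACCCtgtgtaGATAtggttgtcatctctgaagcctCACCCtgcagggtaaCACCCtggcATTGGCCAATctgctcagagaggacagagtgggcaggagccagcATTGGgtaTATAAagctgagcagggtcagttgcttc

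The window of Hba-a2 (chr11:32296242-32296491, plus strand) shared an unbroken run of 247 bases with that of Hba-a1 and is not printed. The windows of Hbb-bs and Hbb-bt were 73.3% identical over 243 aligned bases, and their longest shared run was 14 bases. A TATAA match lay 27 bases before the start of Hba-a1, 29 before that of Hbb-bs and 28 before that of Hbb-bt. The CACCC letters occurred 2 times in Hba-a1, 1 time in Hbb-bs and 3 times in Hbb-bt, and GATA occurred 1, 2 and 2 times. No matches overlapped one another. Among 27025 mouse promoters of the same length, 54.1% held GATA, 51.3% CACCC, 34.5% CCAAT and 23.5% TATAA, and 2.21% held all 4. Each globin window held all 4 too, but those of Hba-a1 and Hba-a2 share 247 bases and hardly count as separate. The motif cores are textbook elements of globin promoters, so their presence was known beforehand and nothing is read from that share. These matches describe the letters and not the binding of a factor.

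The copies are also close to each other in their transcripts. The coding sequences of Hba-a1 and Hba-a2 differed at 1 of 429 bases, and those of Hbb-bs and Hbb-bt at 1 of 444 bases. Of all stretches of 100 bases in the GENCODE transcript of Hba-a2, 74.5% also occurred in that of Hba-a1, and 62.6% of those of Hbb-bs occurred in that of Hbb-bt. Fragments from such stretches cannot be assigned to a copy by sequence, and how they were assigned was not stated in the sources used here. The values of single copies are therefore uncertain, and the sums of the alpha and of the beta copies are given beside them. The transcripts of Hba-a2 and Hbb-bs, the alpha and beta pair compared, shared no stretch of that length.

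FPKM, the number of fragments scaled by transcript length and by the mapped fragments of the library, was for Hba-a1 8135.7 in AAV-ctrl 1, 5547.0 in AAV-ctrl 2 and 957.72 in AAV-IL27. Hba-a2 had an FPKM of 4259.03, 2995.6 and 504.75 in the same order. Both alpha copies were thus highest in AAV-ctrl 1 and lowest, by a wide margin, in AAV-IL27. Their sum was 12395 and 8543 FPKM in the AAV-ctrl libraries, a mean of 10469 ± 2724 (SD, n = 2), and 1462 FPKM in AAV-IL27, which is 14.0% of that mean or 7.16-fold lower. On the scale of log2(FPKM + 1), which is used for the log2 values of genes and sums, AAV-IL27 lay at -2.81 from the AAV-ctrl mean, while the AAV-ctrl libraries differed by 0.54.

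Among the beta copies, Hbb-bs had an FPKM of 6299.18 in AAV-ctrl 1, 4073.63 in AAV-ctrl 2 and 688.91 in AAV-IL27. For Hbb-bt it was 1491.36, 978.47 and 169.72. The order of the libraries was the same as for the alpha copies, with AAV-IL27 lowest. The beta sum was 6421 ± 1936 FPKM (SD, n = 2) in AAV-ctrl and 859 FPKM in AAV-IL27, which is 13.4% of the AAV-ctrl mean or 7.48-fold lower (log2 difference -2.87, against 0.62 between the AAV-ctrl libraries).

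Ahsp differed from the globin genes in the spread of the controls. Its FPKM was 86.5 in AAV-ctrl 1, 82.16 in AAV-ctrl 2 and 11.85 in AAV-IL27. The AAV-ctrl values were close to each other, at 84.3 ± 3.07 (SD, n = 2), a log2 gap of 0.07. The AAV-IL27 value was 14.1% of their mean, or 7.12-fold lower, with a log2 difference of -2.73. In AAV-IL27 the 5 genes thus lay within a narrow range, from 13.3% (Hbb-bs) to 14.1% (Ahsp) of the AAV-ctrl mean. This narrow range depends on the mean of the controls. Against AAV-ctrl 1 alone the log2 differences ran from -3.19 (Hbb-bs) to -2.77 (Ahsp). Against AAV-ctrl 2 alone they ran from -2.69 (Ahsp) to -2.52 (Hbb-bt), so the place of Ahsp was reversed.

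**Figure D1:**
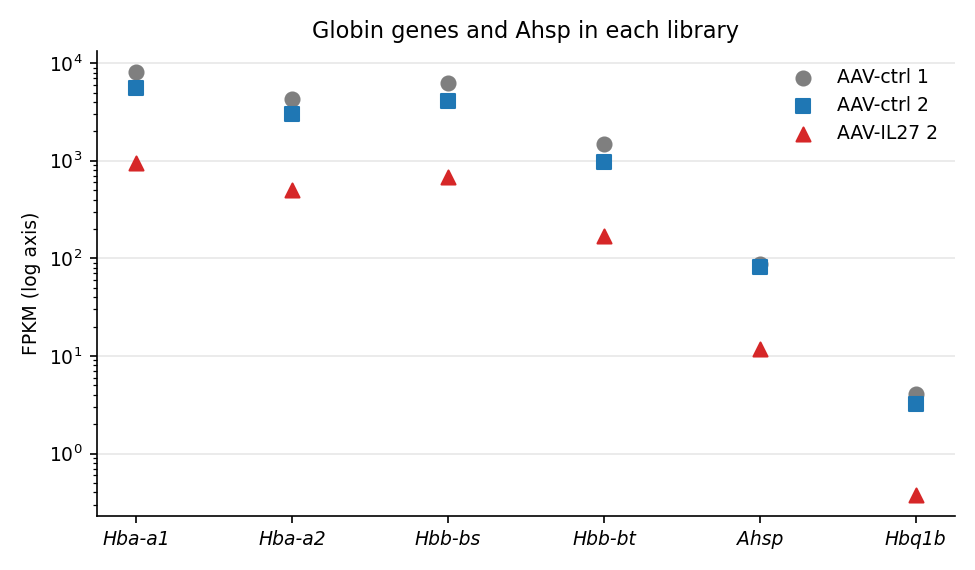
FPKM (log axis) of the 4 adult globin genes, Ahsp and the theta globin gene Hbq1b, with 1 point for each library and no error bars. For every gene the AAV-IL27 point lies under both AAV-ctrl points, and the AAV-ctrl points of Ahsp (86.5 and 82.16) nearly coincide.

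Mice given AAV-IL27 are represented by 1 library here, so their spread was not analysed and p-values are not given. A gene was counted as lower when its log2 value in AAV-IL27 lay at least 1 below each AAV-ctrl library. This held for 5 of the 5 genes and for 212 (2.32%) of the 9130 genes that reached a mean FPKM of 1, and since this contrast had a part in choosing the 5 genes, nothing is read from their count. Genes higher by the same rule were 28 (0.307%). With either AAV-ctrl library set against the remaining libraries in the same way, 3 of all genes were lower and 0 higher for AAV-ctrl 1, and 1 lower and 3 higher for AAV-ctrl 2. Genes were also ordered by how far AAV-IL27 lay under the closer of the controls. Among the 9130 genes, Ahsp stood at 6 (-2.69), Hba-a2 at 11 (-2.57), Hbb-bs at 12 (-2.56), Hba-a1 at 13 (-2.53) and Hbb-bt at 14 (-2.52). Because the same contrast had a part in choosing these genes, nothing is read from their ranks either. The 1 added to each FPKM also shrinks falls at low levels, so this order favours abundant genes. These are bulk values of a sorted population, so fewer erythroid cells among the cells taken and less globin RNA in each such cell cannot be told apart.

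The order of the levels was the same in each of the 3 libraries, Hba-a1 first, then Hbb-bs, Hba-a2, Hbb-bt and Ahsp. Over the AAV-ctrl libraries the ranges of Hba-a1 and Hbb-bs overlapped, as did those of Hbb-bs and Hba-a2, although the order held within each library. The ranges of Hbb-bt and Ahsp were apart from those of their neighbours. Among the 16072 genes, Hba-a1 ranked 7 and 12 by FPKM in the AAV-ctrl libraries and 57 in AAV-IL27. Hbb-bs ranked 11 and 13 and then 86, and Ahsp ranked 816 and 848 and then 4072. Globin transcripts thus remained among the more abundant transcripts of the AAV-IL27 library.

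The 4 globin genes together made up 3.40% of the summed FPKM in AAV-ctrl 1, 2.32% in AAV-ctrl 2 and 0.405% in AAV-IL27. The FPKM of all genes summed to 594158 in AAV-ctrl 1, 586513 in AAV-ctrl 2 and 573759 in AAV-IL27. Without the 5 genes the sums in that order were 573886, 572836 and 571426, and lay much closer together. The AAV-ctrl mean exceeded AAV-IL27 by a net 16576 FPKM in all genes and by 14569 FPKM in the globin genes, a size of 87.9% of that net value. Between the AAV-ctrl libraries the net excess of AAV-ctrl 1 was 7645 FPKM, and that of the globin genes was 6591 FPKM, a size of 86.2%. Rises and falls of other genes cancel in such net values, so these percentages do not divide the change among genes. The 18 neutrophil genes also summed lower in AAV-IL27 (179540 FPKM) than in AAV-ctrl 1 (189945) and AAV-ctrl 2 (186489).

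Ratios within a library do not depend on its scaling, and their log2 differences were taken from the plain ratios, with nothing added. The alpha sum was 1.59 and 1.69 times the beta sum in the AAV-ctrl libraries, 1.64 ± 0.0706 (SD, n = 2), and 1.70 times in AAV-IL27. The log2 difference of this ratio was 0.05, under the gap of 0.09 between the AAV-ctrl libraries. Hba-a1 was at 1.91 and 1.85 times the FPKM of Hba-a2 in AAV-ctrl, and at 1.90 times in AAV-IL27. Hbb-bs was at 4.22 and 4.16 times that of Hbb-bt in AAV-ctrl, and at 4.06 times in AAV-IL27. The balance of chains and the split between copies, as the authors' counting assigned it, thus moved by a few percent while the level moved by over 7-fold.

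Ahsp relative to its alpha globin client was at 0.698% of the alpha sum in AAV-ctrl 1, 0.962% in AAV-ctrl 2 and 0.810% in AAV-IL27. The AAV-IL27 value lay between the AAV-ctrl values. Here the larger difference was the one between the controls, at 0.46 on the log2 scale, and AAV-IL27 differed from their mean by -0.02.

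**Figure D2:**
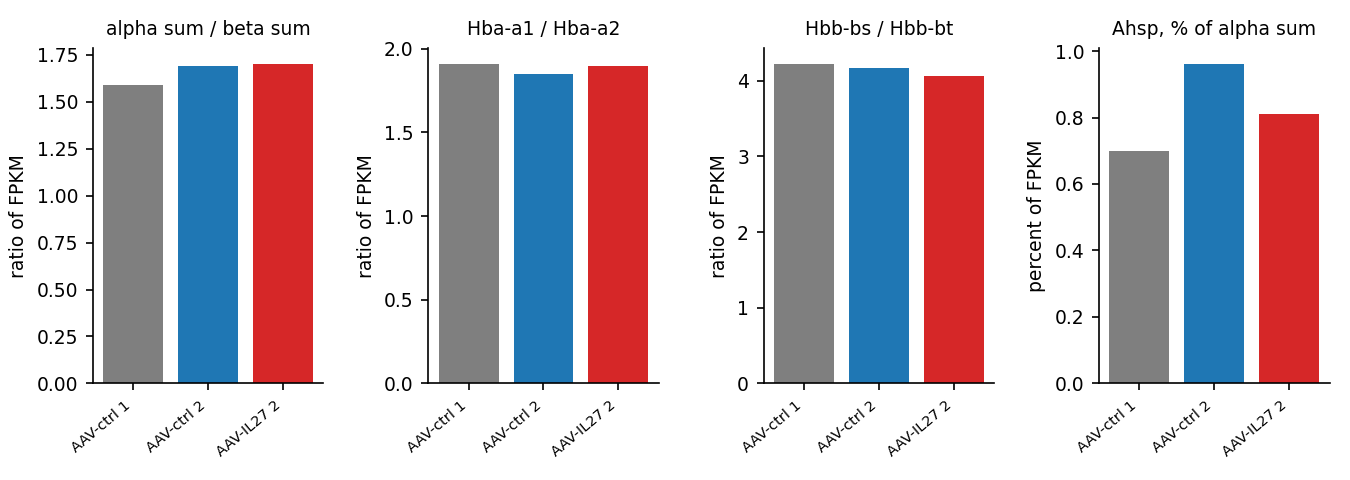
Ratios of FPKM within each library, with 1 bar for each of the 3 libraries and axes from 0 (alpha to beta sums, Hba-a1 to Hba-a2, Hbb-bs to Hbb-bt, and Ahsp as a percentage of the alpha sum). The first 3 ratios are nearly level, while Ahsp ranges from 0.698% to 0.962% of the alpha sum and is lowest in AAV-ctrl 1.

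Counting error was small beside these differences. Steps between low FPKM values gave an estimated depth of 19050000 fragments for AAV-ctrl 1, 19600000 for AAV-ctrl 2 and 19450000 for AAV-IL27. At that depth Hba-a2 had an estimated 39269, 28417 and 4752 fragments, with an exact Poisson interval (95%) from 4618 to 4889 in AAV-IL27. Such intervals cover counting error only and not the spread between mice.

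Other members of the globin family were at low levels or not listed. Of 11 further globin genes looked for, 6 were found by symbol, and of these only Hbq1b reached a mean FPKM of 1. Hbq1b, a theta globin gene of the alpha cluster (chromosome 11 from 32286964 to 32287912), had an FPKM of 4.08 in AAV-ctrl 1, 3.24 in AAV-ctrl 2 and 0.38 in AAV-IL27. It was 10.4% of the AAV-ctrl mean in AAV-IL27, with a log2 difference of -1.75, and its estimated fragments were 38, 31 and 4, with Poisson intervals of 26.9 to 52.2, 21.1 to 44.0 and 1.09 to 10.2. The interval of the AAV-IL27 library lay under those of both AAV-ctrl libraries. Such intervals of single libraries cover counting error only, so they do not compare the groups of mice. Its near copy Hbq1a was at 0.12, 0.24 and 0.1 FPKM, which corresponds to 1, 3 and 1 estimated fragments. The embryonic beta-like gene Hbb-bh1 was listed at 0.1 in AAV-ctrl 1 and at 0 in the other libraries. Globins of other tissues were at or near 0, with the myoglobin gene Mb at 0, 0.06 and 0, the neuroglobin gene Ngb at 0, 0.03 and 0.03 and the cytoglobin gene Cygb at 0, 0.05 and 0 FPKM in the same order. Hba-x, Hbb-y, Hbb-bh2, Hbb-bh0 and Hbb-bh3 were not analysed here. A gene of another beta globin haplotype of mice, Hbb-b1, was looked up after its values had been seen and was at 0.9 and 0.6 FPKM in AAV-ctrl and listed at 0 in AAV-IL27.

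Many genes that act with globin in red cell precursors were lower in the AAV-IL27 library too. A list of 30 genes of late erythroblasts and reticulocytes had 28 genes at a mean FPKM of 1 or more, of which 20 were lower, 0 were higher and 8 did neither, with a median log2 difference of -1.91 against -0.01 over all 9130 genes. Alas2, the erythroid enzyme that starts haem synthesis, had an FPKM of 111.4 and 70.33 in AAV-ctrl and 10.81 in AAV-IL27, or 11.9% of the AAV-ctrl mean. The mitophagy receptor gene Bnip3l (89.61, 79.93 and 84.73) and the ubiquitin ligase gene Mkrn1 (71.86, 66.98 and 58.29), which with Alas2 had the highest mean FPKM of this list over the 3 libraries, were not lower by the rule. A mean that includes AAV-IL27 favours genes that did not fall, and Car2, a carbonic anhydrase gene that was above Mkrn1 in both AAV-ctrl libraries, was at 83.28, 78.7 and 7.66 FPKM. Among 17 genes of earlier erythroid cells 15 reached a mean FPKM of 1, and 12 were lower, 0 higher and 3 neither (median -1.71). The carbonic anhydrase gene Car1 was at 14.44, 18.17 and 3.74 FPKM and the water channel gene Aqp1 at 13.64, 17.48 and 1.56 FPKM, with the libraries in the same order. Tmem14c, which serves porphyrin transport in mitochondria, was at 56.75, 61.02 and 44.43 FPKM and was not lower by the rule. The median gene of the late list stood at 15.0% of its AAV-ctrl mean in AAV-IL27 and that of the early list at 14.9%, beside 13.3% to 14.1% for the globin genes and Ahsp.

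In haem supply, 7 of 17 genes were lower, 0 were higher and 10 did neither (median -0.73). The list shares 3 genes with the late erythroid list, Alas2 among them, and 3 with the early one. Among the 7, and apart from Alas2 named after their values were seen, were Alas2, Alad, Cpox and Fech, which encode enzymes of haem synthesis, the mitochondrial carrier gene Abcb10 and the transferrin receptor gene Tfrc. Other enzyme genes of haem synthesis, also named after their values were seen, were not lower by the rule. In AAV-IL27 they stood at 98.4% (Ppox), 87.7% (Alas1), 58.4% (Urod) and 45.2% (Uros) of the AAV-ctrl mean. The iron carrier gene Slc25a37 was not lower by the rule either. Its FPKM was 63.77 in AAV-ctrl 1, 61.65 in AAV-ctrl 2 and 50.32 in AAV-IL27.

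Of 20 regulators of globin genes, 19 reached a mean FPKM of 1, and 5 were lower, 0 higher and 14 neither (median -0.18). The 5 lower genes, named after their values were seen, were Gata1, Klf1, Tal1, Zfpm1 and Gfi1b, and 4 of the 20 genes are also in the early erythroid list. Klf1, a Krüppel-like factor that binds CACCC letters in the beta globin promoter, was at 7.18, 7.94 and 0.53 FPKM (log2 difference -2.48). Gata1, the master factor of erythroid genes, was at 3.83, 4.12 and 0.54 FPKM (-1.69). The regulators with the highest levels were nearly level across libraries. Nfe2, a subunit of an activator that binds the distal beta globin enhancers, was at 298.9, 307.18 and 303.71 FPKM. Its partner gene Mafg was at 51.21, 56.61 and 53.55 FPKM, and Lmo2, an adaptor of the GATA1 complex, at 54.53, 53.66 and 47.71 FPKM.

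**Figure D3:**
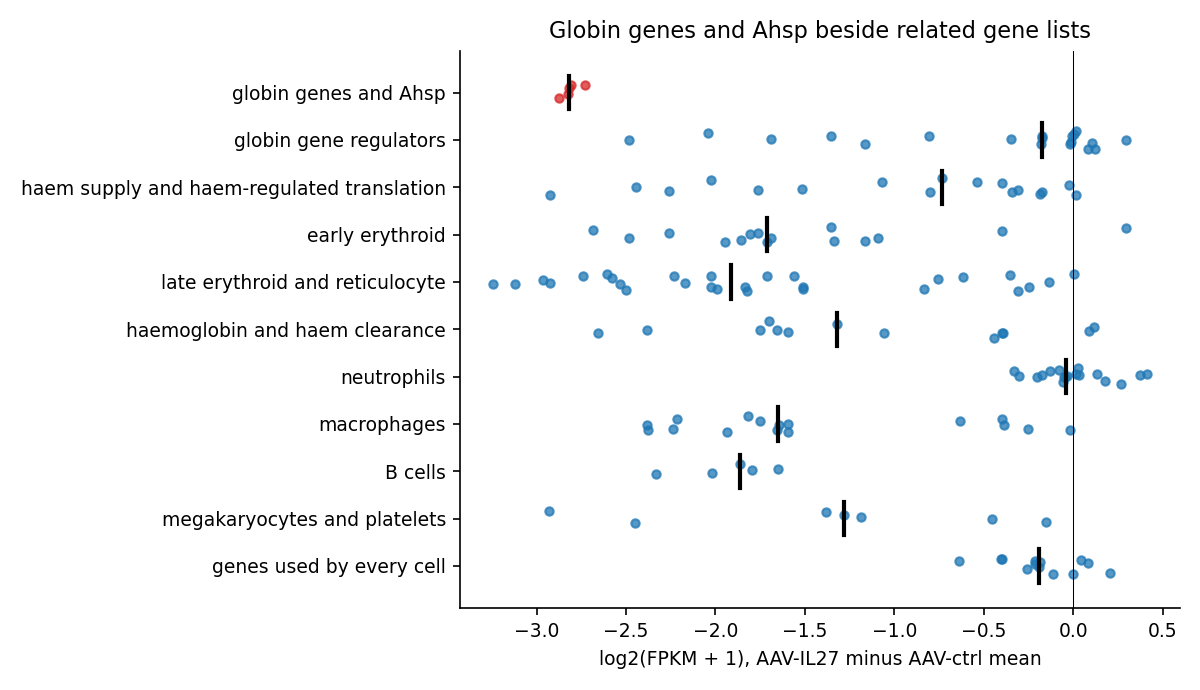
Log2(FPKM + 1) of AAV-IL27 minus the AAV-ctrl mean for the 5 genes (red) and for the listed genes that reached a mean FPKM of 1 (blue), with black bars at the medians and vertical scatter added for clarity. The 5 genes lie between -2.88 and -2.73, at the low end of the late erythroid list (median -1.91), and neutrophil genes lie around 0 (median -0.04).

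The gap between the AAV-ctrl libraries set the globin genes apart from many erythroid genes. AAV-ctrl 2 lay at least 0.5 on the log2 scale under AAV-ctrl 1 for 4 of the 4 globin genes, with gaps of -0.55 (Hba-a1), -0.51 (Hba-a2), -0.63 (Hbb-bs) and -0.61 (Hbb-bt), but not for Ahsp. This was the case for 44 of 9130 genes (0.482%), and 93 genes lay as far in the other direction (1.02%). The gap had a median size of 0.09 over all genes and a 99th percentile of 0.57. In the late erythroid list 22 of 28 genes were lower in AAV-ctrl 2 than in AAV-ctrl 1, 3 of them by at least 0.5, and the median gap was -0.17. Among those 3, and named for this gap, were Alas2 (-0.66) and Bpgm (-0.55), which encodes the enzyme that makes the haemoglobin ligand 2,3-bisphosphoglycerate. In the early erythroid list 6 of 15 genes were lower in AAV-ctrl 2, 0 by at least 0.5, and the median gap was 0.08. Gata1 (0.08) and Klf1 (0.13) were slightly higher in AAV-ctrl 2. The cause of the gap between the controls was not tested.

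**Figure D4:**
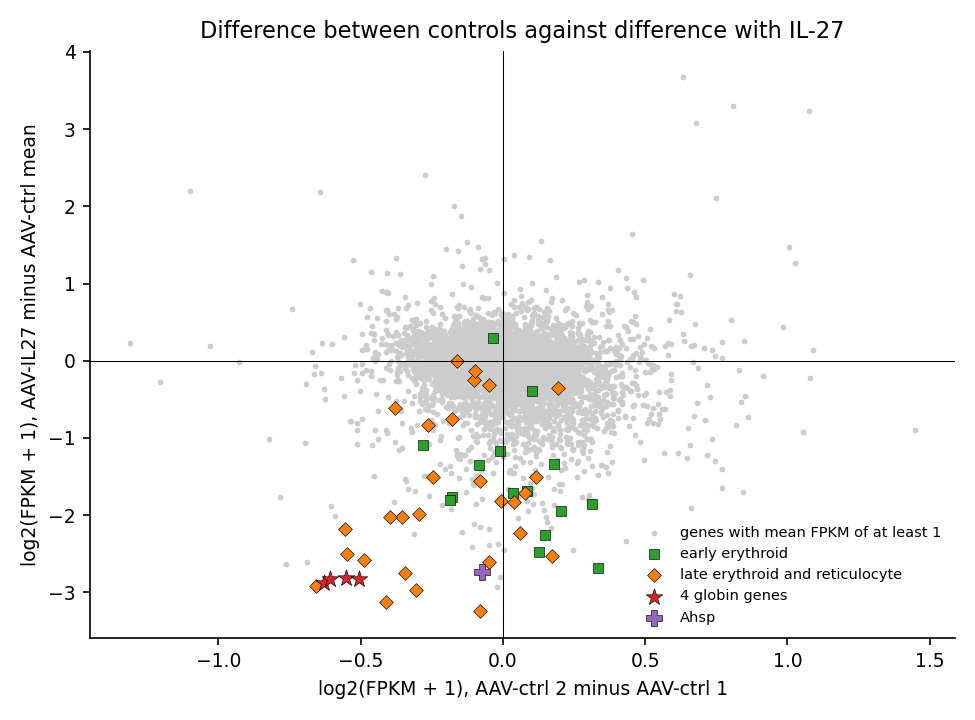
Each point is a gene that reached a mean FPKM of 1, placed by the log2(FPKM + 1) gap between the AAV-ctrl libraries (x axis) and by AAV-IL27 minus the AAV-ctrl mean (y axis), which share the AAV-ctrl values. The 4 globin genes (stars) lie together at the lower left, Ahsp (plus sign) lies at the same depth near a gap of 0, and early erythroid genes (squares) have a median gap of 0.08.

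The genes whose pattern over the 3 libraries was nearest to that of the globin genes were sought by the distance between their pair of log2 differences from AAV-ctrl 1 and the mean of that pair over the 4 globin genes (-0.57 for AAV-ctrl 2 and -3.12 for AAV-IL27). With 3 libraries this likeness rests on 2 differences. The nearest gene was Alas2 at a distance of 0.15, and Fam213a (0.21), Steap4 (0.22) and Slc4a1 (0.27) were also near. Slc4a1 encodes the anion exchanger of the red cell membrane. Fam213a encodes a redox protein and Steap4 a metalloreductase. Tmcc2 (0.31), Trim10 (0.31), Car2 (0.52) and the platelet chemokine gene Ppbp (0.58) were further away. Ahsp was at a distance of 0.61 and at rank 15 among all genes when the 4 globin genes are counted.

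Genes that receive haemoglobin and haem from dying red cells were lower in part. Of 14 such genes 13 reached a mean FPKM of 1, and 8 were lower, 0 higher and 5 neither (median -1.32), and 5 of the 14 are also in the macrophage list. Hp, which encodes the plasma haemoglobin scavenger haptoglobin and is also made by neutrophils, was at 1588.68, 1630.64 and 1181.67 FPKM. The ferritin chain genes Ftl1 (2475.15, 2397.5 and 2643.28) and Fth1 (1571.47, 1502.66 and 1630.75) were slightly higher in AAV-IL27. Cd163, the haemoglobin-haptoglobin receptor of macrophages, named after its values were seen, was at 18.69, 18.02 and 2.07 FPKM, or 11.3% of the AAV-ctrl mean.

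Markers of the labelled cells and of other cells are given for the same libraries. Of 18 neutrophil genes 0 were lower or higher, the median log2 difference was -0.04, and their summed FPKM was 189945 in AAV-ctrl 1, 186489 in AAV-ctrl 2 and 179540 in AAV-IL27. S100a9 (73508, 71786 and 68765 FPKM), S100a8 (41371, 38113 and 38320) and Ngp (25644, 24728 and 24209) led this list, and Ly6g, the gene of the sorted antigen, was at 711.76, 766.11 and 586.29 FPKM. Of 16 macrophage genes 11 were lower (median -1.65), and their summed FPKM was 1396, 1387 and 656, with Apoe at 199.97, 231.47 and 138.56, Slc40a1 at 167.99, 152.26 and 120.91 and Hmox1 at 207.37, 164.46 and 57.86. Of 9 B cell genes 5 reached a mean FPKM of 1, and all 5 were lower (median -1.87), and the summed FPKM of the 9 was 30.7, 41.0 and 5.07, led by Cd79a, Cd79b and Vpreb3. Of 9 megakaryocyte and platelet genes 7 reached it, and 4 were lower (median -1.28), with a summed FPKM of 79.7, 89.4 and 32.9, led by Itgb3, Ppbp and Pf4. No gene of these lists was listed at 0 in all 3 libraries. Of 13 genes used by every cell 0 were lower or higher (median -0.19), with Actb at 6178.7, 6141.14 and 6355.81, Gapdh at 2252.61, 2342.67 and 2119.38 and Eef1a1 at 602.46, 643.09 and 535.48 FPKM. Many markers of macrophages, B cells and platelets thus moved in the same direction as the globin genes. Of those not lower by the rule, and named after their values were seen, Csf1r stood at 98.5%, Adgre1 at 83.2% and Cd68 at 76.1% of the AAV-ctrl mean. Itgb3, which led the platelet list, stood at 89.4% and was not lower by the rule. The part of these cells in the result was not tested.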

How the data were processed

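BM Ly6G+ cells were profiled by RNA-seq after oligo-dT selection with strand-marked cDNA on the DNBSEQ platform at BGI. The authors deposited FPKM values with 2 decimals for 16073 rows keyed by NCBI Gene numbers, and 1 row without a symbol was dropped. The genome build per the labels is mm10. The aligner, the counting tool and the gene annotation release were not given in the sources used here. Groups were taken from sample titles. The table holds 1 more column of per-sample values whose heading names IL27 but matches none of the samples listed, and it stayed out of every step.

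Differences are log2(FPKM + 1) of AAV-IL27 minus the AAV-ctrl mean, and counts use a threshold of 1 on the log2 scale over genes whose mean FPKM reached 1. No test was run with 1 AAV-IL27 library. The members, gene lists, thresholds and alternatives were chosen with earlier results of these data known. Named genes were the 5 members, the listed globins, the 3 most abundant genes of each list and the 10 nearest patterns, and others are named as looked up afterwards. Some genes that this rule or a count would name are not reported here. Alternatives were pseudocounts of 0.1 and 0.01, other filters and thresholds, 3 rescalings and leaving out each AAV-ctrl library.

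Depth was fitted over 10915 genes with a single transcript, with 70 nt subtracted from each length, and placed 70.7%, 71.4% and 66.5% of low values within 0.15 of whole fragments, so that the fragments are approximate and a count model was not used. The GENCODE models of Hba-a1, Hbb-bs and Hbb-bt begin upstream of the RefSeq starts. Promoters are from RefSeq (GRCm38.p6), and transcripts and exons from GENCODE M21 (GRCm38, the mm10 assembly), aligned with Biopython 1.88. The tools were Python 3.11.15 with pandas 2.3.3 and numpy 2.4.6, matplotlib 3.10.9 for figures and scipy 1.17.1 for intervals, and the scripts were tested on simulated data.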

Additional observations from a re-analysis of the deposited data

How the results depend on the processing

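The 5 genes, chosen on this contrast, were counted as lower in AAV-IL27 under all 11 alternatives of the count, 2 of which left 1 AAV-ctrl library to compare with. Over the alternatives for single values, the log2 difference of the alpha sum ranged from -3.08 to -2.55 and that of the beta sum from -3.18 to -2.56, and the ends came from leaving out AAV-ctrl 2 and AAV-ctrl 1. Ahsp moved by more than its small control spread with a pseudocount of 0.1 (-2.82) and 0.01 (-2.83), which understates low values less by construction. The globin share of all FPKM was lower in AAV-IL27 by 2.99 percentage points without AAV-ctrl 2 and by 1.91 without AAV-ctrl 1.

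The 212 lower genes became 396 and 424 with pseudocounts of 0.1 and 0.01, 93 at a mean FPKM of at least 5, 640 at a threshold of 0.5 and 39 at 2. The 28 higher genes became 46 with a pseudocount of 0.01, 143 at a threshold of 0.5, 5 at 2, 40 without AAV-ctrl 1 and 49 without AAV-ctrl 2. Rescaling moved the median of all genes by at most 0.04.

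List medians moved by more than the control spread in 24 of 80 cases, with 0 changes of sign. With a pseudocount of 0.1 and 0.01 they were -2.33 and -2.68 (early erythroid), -2.62 and -2.72 (late erythroid), -1.67 and -1.67 (clearance), -1.76 and -1.77 (macrophages), -2.87 and -2.94 (B cells) and -1.95 and -2.03 (megakaryocytes). With equal FPKM totals they were -0.14 (globin regulators), -1.70 (early erythroid), -0.00039 (neutrophils), -1.61 (macrophages) and -0.15 (genes used by every cell). Without a filter they were -1.69 (early erythroid) and -1.65 (B cells). Without AAV-ctrl 1 and without AAV-ctrl 2, in that order, they were -0.17 and -0.14 for the globin regulators, -1.72 and -1.70 for early erythroid genes, -0.027 and -0.046 for neutrophils and -1.68 and -1.71 for macrophages.

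No paired analysis was made, because the labels describe no pairing of AAV-ctrl mice with AAV-IL27 mice. With 1 AAV-IL27 library, the spread of the globin values among AAV-IL27 mice was not analysed here.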

Other observations

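Ube2o encodes a ubiquitin enzyme known for clearing proteins from maturing reticulocytes. It belonged to none of the lists and was looked up after its values were seen. Its FPKM was 12.68 in AAV-ctrl 1, 8.08 in AAV-ctrl 2 and 1.77 in AAV-IL27, so it was lower in AAV-IL27 than in both controls (log2 difference -2.01). Its gap between the AAV-ctrl libraries was -0.59, near that of the globin genes.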
